A study of Mus musculus with 8 samples.

Results

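The genes that encode the respiratory chain and the ATP synthase of mitochondria were described in Th17 cells, the helper T cells that make IL-17, from WT and *Trim28* KO mice. The 83 genes were chosen by symbol alone, with no measured value, out of the 13704 genes with at least 1 read in either library. They were the Nduf genes (without the Ndufaf assembly factors), *Sdha*, *Sdhb*, *Sdhc*, *Sdhd*, the Uqcr genes, *Cyc1*, *Cycs*, the Cox4 to Cox8 genes and the Atp5 genes. By role, 36 encode subunits of complex I, 4 of complex II, 9 of complex III, 1 cytochrome c, 16 complex IV with its isoforms, and 15 the ATP synthase. *Atp5s* and *Atp5sl* carry a fitting symbol but are not structural subunits.

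RNA-seq was done on naive CD4+ T cells of C57BL/6 mice after a culture of 3 days in TGF-β (0.5 ng/ml) plus IL-6 (20 ng/ml), followed by re-stimulation with anti-CD3. The KO cells had the genotype TRIM28fl/flxCD4cre, in which a Cre transgene under the *Cd4* promoter removes floxed *Trim28* in T cells, and the WT cells were labelled wild type without a statement on floxed alleles or Cre. TRIM28 is a chromatin cofactor best known as a partner of KRAB zinc finger proteins. There was 1 library per genotype, so no difference given here has a replicate check and no p-value is given, and libraries, cultures and genotypes cannot be told apart. Fold changes are KO over WT of reads scaled to the library totals, with 0.5 added to each count, and their exact (Clopper-Pearson) 95% intervals cover counting error only. In bulk RNA, more cells with a message and more message per cell cannot be told apart either.

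In units of 1000000 reads, the WT library held 6.65, spread over 13078 genes, and the KO library 6.19, spread over 12754. Below, reads and levels are given for the WT library and then for the KO library. *Trim28* had 4485 and 180 reads, and its log2 fold change of -4.53 had an interval from -4.76 to -4.32. Of 16 T cell and Th17 markers, 13 were listed, and they summed to 5836 and 4162 CPM (reads scaled to a library of 1000000 reads). *Cd4* (7904 and 6598 reads) and *Cd3e* (4407 and 4778 reads) were abundant in both, and *Cd8a* was at 1 and 2 reads. B cell markers (7 of 7 listed) summed to 17.0 and 13.1 CPM, myeloid and dendritic cell markers (6 of 16 listed, with *Lyz2*, *Csf1r* and *S100a8* at 0) to 5.41 and 18.1 CPM (36 and 112 reads, of which *Clec12a* had 0 and 75), and the CD8 markers to 7.97 and 4.69 CPM. Of 5 markers of NK and innate lymphoid cells only *Klrd1* was listed (8.72 and 11.3 CPM). The part of these other cells in the values below was not tested.

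Complex I takes electrons from NADH and complex II from succinate, and ubiquinone carries them to complex III, cytochrome c and complex IV, which passes them to oxygen. Complexes I, III and IV pump protons across the inner mitochondrial membrane, and the ATP synthase uses their return to make ATP. Activated T cells build up both glycolysis and this machinery, and most of its subunits are encoded in the nucleus by genes with short, abundant messages, while a small hydrophobic core is encoded in mitochondrial DNA and was not analysed here.

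The stretches around the transcription start are shown for genes picked by their values. *Ndufa5*, *Atp5g1* and *Cox6a1* had the highest ratios among the members at least 1.5-fold higher in the KO library with at least 100 reads. *Uqcrh*, *Ndufa6* and *Atp5l* had intervals below 0. Each stretch runs 5′ to 3′ on the minus strand from 250 bases before to 50 bases after the start, as given by RefSeq on GRCm38.p6. Capitals mark, on either strand, the NRF1 core GCGCATGC, the ETS (GABPA) core CCGGAAG, the YY1 core AAGATGGC, the CCAAT box CCAAT and the GC box GGGCGG. The windows are chr6:24527641-24527940 for *Ndufa5* (the outer of 2 annotated starts), chr11:96075582-96075881 for *Atp5g1*, chr5:115348909-115349208 for *Cox6a1*, chr4:116075021-116075320 for *Uqcrh*, chr15:82354242-82354541 for *Ndufa6* and chr9:44920693-44920992 for *Atp5l*.
Ndufa5: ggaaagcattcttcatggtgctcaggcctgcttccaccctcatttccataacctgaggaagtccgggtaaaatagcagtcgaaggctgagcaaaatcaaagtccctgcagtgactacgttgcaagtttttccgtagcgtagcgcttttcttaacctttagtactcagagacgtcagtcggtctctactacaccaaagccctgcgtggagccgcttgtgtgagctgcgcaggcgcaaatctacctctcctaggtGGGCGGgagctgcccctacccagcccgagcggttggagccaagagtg
Atp5g1: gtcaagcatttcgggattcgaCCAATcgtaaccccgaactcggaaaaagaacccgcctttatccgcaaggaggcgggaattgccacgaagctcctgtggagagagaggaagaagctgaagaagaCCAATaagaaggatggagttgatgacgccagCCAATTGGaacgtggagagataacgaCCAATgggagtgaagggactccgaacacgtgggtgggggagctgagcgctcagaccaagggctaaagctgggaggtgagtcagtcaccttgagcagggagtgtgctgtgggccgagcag
Cox6a1: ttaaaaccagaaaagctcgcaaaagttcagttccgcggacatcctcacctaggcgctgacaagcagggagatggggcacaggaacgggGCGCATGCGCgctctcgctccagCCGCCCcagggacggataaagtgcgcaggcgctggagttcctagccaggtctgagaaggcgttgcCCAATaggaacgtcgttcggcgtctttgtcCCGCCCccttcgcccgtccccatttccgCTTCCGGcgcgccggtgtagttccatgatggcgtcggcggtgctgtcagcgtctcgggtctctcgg
Uqcrh: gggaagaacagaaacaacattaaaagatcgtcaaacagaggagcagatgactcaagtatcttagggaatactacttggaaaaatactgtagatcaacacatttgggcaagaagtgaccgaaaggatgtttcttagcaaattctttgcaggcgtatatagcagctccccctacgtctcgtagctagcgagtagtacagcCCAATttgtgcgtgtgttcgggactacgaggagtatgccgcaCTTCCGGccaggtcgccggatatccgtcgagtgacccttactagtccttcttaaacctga
Ndufa6: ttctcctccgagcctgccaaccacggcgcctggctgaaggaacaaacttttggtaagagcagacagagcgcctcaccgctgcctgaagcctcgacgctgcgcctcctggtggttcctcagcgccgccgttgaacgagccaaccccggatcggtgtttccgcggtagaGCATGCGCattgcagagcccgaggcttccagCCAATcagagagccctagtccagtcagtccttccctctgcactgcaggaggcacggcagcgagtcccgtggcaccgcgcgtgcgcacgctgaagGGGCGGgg
Atp5l: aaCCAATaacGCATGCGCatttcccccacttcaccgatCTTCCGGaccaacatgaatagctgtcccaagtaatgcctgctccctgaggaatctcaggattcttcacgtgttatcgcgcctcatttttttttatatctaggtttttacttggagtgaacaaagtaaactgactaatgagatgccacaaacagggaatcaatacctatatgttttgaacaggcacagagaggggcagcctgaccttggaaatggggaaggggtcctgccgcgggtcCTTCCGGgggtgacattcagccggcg

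The *Cox6a1* window held matches to 4 of the 5 motifs, and its 2 NRF1 matches overlap on opposite strands. The *Ndufa5* window held a GC box alone. The *Atp5g1* window held 5 CCAAT matches, of which a pair overlaps on opposite strands, and none of the other motifs. *Uqcrh*, *Ndufa6* and *Atp5l*, which lay on the other side of the comparison, each held an NRF1 or an ETS core as well. A match is a description of letters and not a shown site, and a window without one says only that these letters are not in it.

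Of the 83 members, 81 had at least 10 reads over both libraries and entered the counts below. Their messages were mostly somewhat higher in the KO library. The ratio was above 1 for 74 of the 81 (91.4%), against 48.6% of all 10881 genes with at least 10 reads, and the interval lay above 0 for 64 (79.0%), against 23.5%. The median log2 fold change of the members was 0.40, with quartiles of 0.24 and 0.54, against a median of -0.02 over all genes. The differences were small: 13 members (16.05%) were at least 1.5-fold higher with an interval above 0, against 7.5% of all genes, and 1 member (1.23%) was at least 1.5-fold lower, against 12.5%. No member was 2-fold higher or lower in this sense, where 2.78% and 6.07% of all genes were. Shares of all genes differ with transcript length and reads per gene, and values for genes more like the members are given below.

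**Figure D1:**
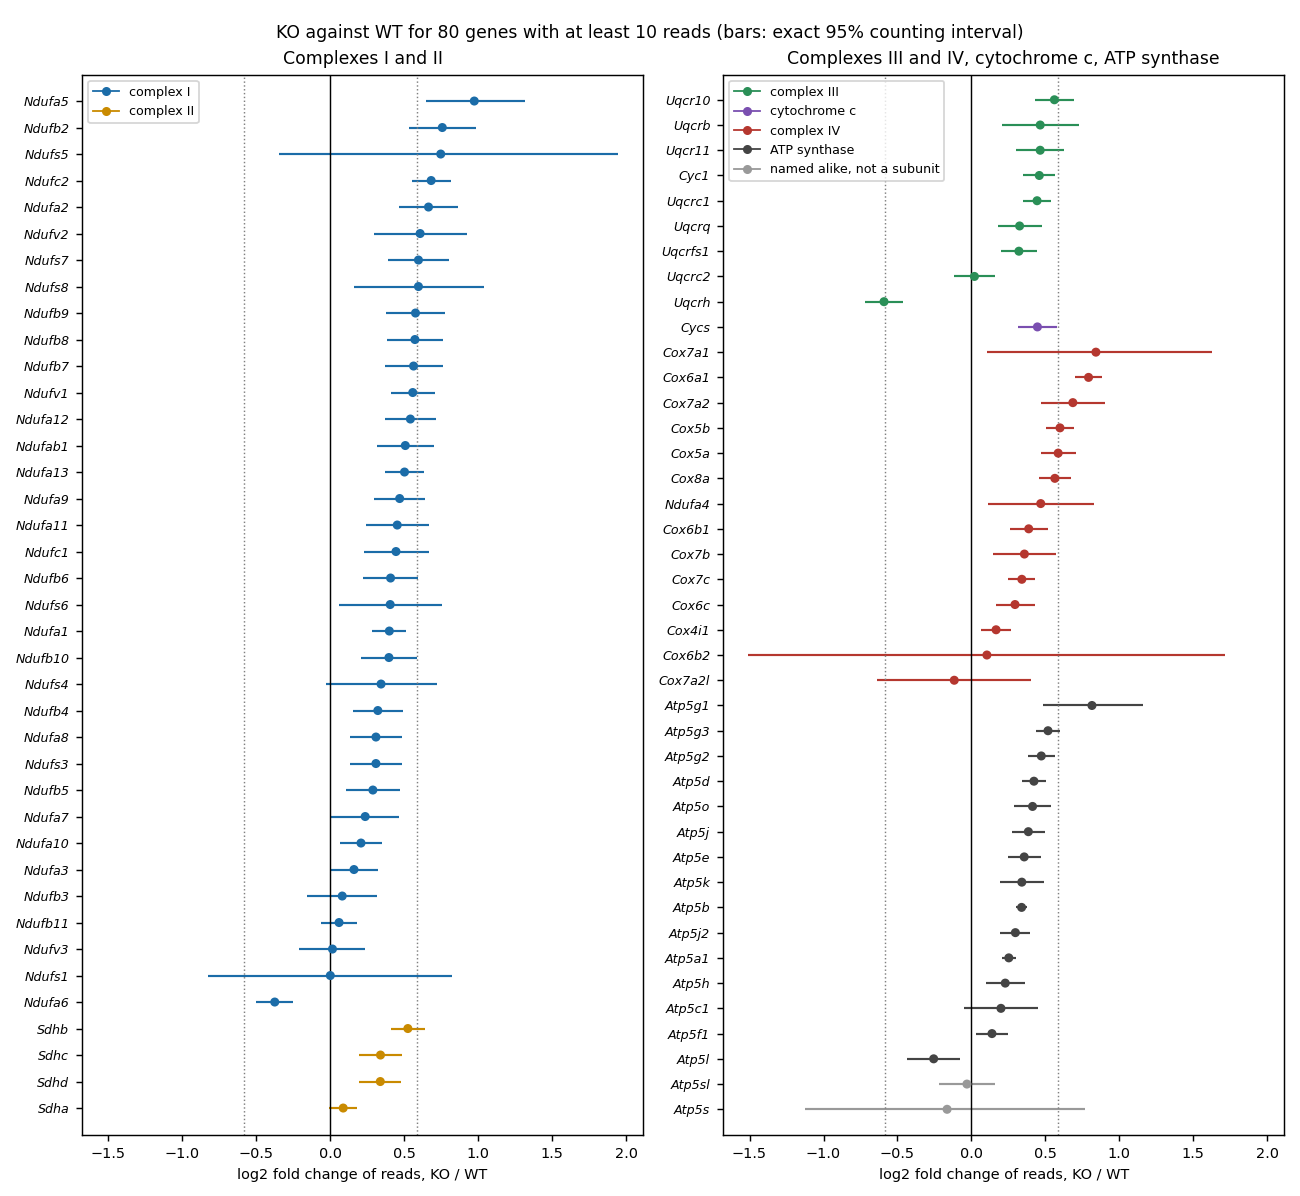
Log2 fold change of reads, KO over WT, of 80 of the 81 members with at least 10 reads (x axis; points) with the exact 95% counting interval (bars), 1 library per genotype, coloured by complex. The solid line marks 0 and the dotted lines a 1.5-fold difference; 73 points lie to the right of 0, and *Uqcrh*, *Ndufa6* and *Atp5l* have intervals wholly to its left.

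Together the 83 members took 1.11% of all reads in the WT library (exact 95% interval from 1.102% to 1.118%) and 1.42% in the KO library (from 1.41% to 1.43%). The log2 ratio of these shares was 0.35 (from 0.34 to 0.37). All of the complexes had a summed share that was higher in the KO library, with log2 ratios of 0.35 for complex I, 0.29 for complex II, 0.27 for complex III, 0.48 for complex IV and 0.33 for the ATP synthase. Complex IV stood highest (interval from 0.45 to 0.52) and complex III lowest (from 0.23 to 0.32), and the interval of complex IV did not overlap those of the other complexes. These intervals cover counting error only, and a difference between complexes was not tested. Medians over single genes, which are not led by the most abundant message, lay closer together, at 0.43, 0.34, 0.44, 0.43 and 0.34 in the same order.

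Complex I, the entry point for electrons from NADH, had 34 of 36 genes with a ratio above 1, and 28 intervals above 0. Beside these and the counts for the other complexes below stand 48.6% and 23.5% of all genes. Among 3208 genes between 445 and 1896 bases long, 67.7% had a ratio above 1 and 1150 an interval above 0. Its core subunits hold the flavin and the iron-sulfur clusters. In the electron input (N) module, *Ndufv1*, which binds NADH, had 654 and 895 reads (log2 fold change 0.56), and *Ndufv2* had 146 and 207 (0.61, interval from 0.30 to 0.92). *Ndufs1*, a large iron-sulfur protein of the same module, was level with 28 and 26 reads (-0.00, from -0.83 to 0.82). In the ubiquinone-binding (Q) module, the core subunits *Ndufs7*, *Ndufs8* and *Ndufs3* were higher in the KO library. *Ndufs7* had 340 and 478 reads (0.60), *Ndufs8* had 76 and 107 (0.60) and *Ndufs3* had 488 and 562 (0.31).

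The highest ratio of all members was that of *Ndufa5*, an accessory subunit of the Q module, with 117 and 214 reads (0.97 on the log2 scale, interval from 0.64 to 1.31). All 19 accessory genes of the membrane arm, which sits in the inner membrane and pumps protons, had ratios above 1. They ranged from 0.06 to 0.76 on the log2 scale, and *Ndufb2* (269 and 423 reads, 0.76) and *Ndufc2* (797 and 1189 reads, 0.68) were at least 1.5-fold higher. *Ndufs5* was measured with only 12 and 19 reads, and its interval ran from -0.35 to 1.94. Among the accessory genes of the N module, *Ndufa2* stood at 344 and 507 reads (0.66, from 0.46 to 0.87). *Ndufa6*, from a family of small proteins with an LYR motif, went the other way with 1242 and 890 reads (-0.38, from -0.50 to -0.25). *Ndufa1*, the complex I gene with the highest level per length in the WT library, had 1132 and 1388 reads (0.40).

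Complex II is succinate dehydrogenase, an enzyme of the tricarboxylic acid cycle as well, and all 4 of its genes were measured. The iron-sulfur subunit *Sdhb* had 1052 and 1407 reads (0.52 on the log2 scale, from 0.41 to 0.64). The flavoprotein *Sdha*, its partner in the catalytic head, had 1791 and 1769 reads (0.09, from -0.01 to 0.18). The membrane anchors lay between these, with 714 and 840 reads for *Sdhc* and 747 and 878 for *Sdhd*, each at 0.34. No gene of complex II reached 1.5-fold.

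Complex III, which hands electrons from ubiquinol to cytochrome c, had 8 of 9 genes with a ratio above 1. *Cyc1*, its cytochrome, had 1243 and 1589 reads (log2 fold change 0.46), and *Uqcrfs1*, the Rieske iron-sulfur protein, had 1075 and 1249 (0.32). The core proteins differed from each other: *Uqcrc1* had 1641 and 2076 reads (0.44, interval from 0.35 to 0.54), and *Uqcrc2* had 863 and 814 (0.02, from -0.12 to 0.16). The small subunit *Uqcr10* had the highest ratio of the complex, with 795 and 1091 reads (0.56). *Uqcrh*, the hinge protein that lies near cytochrome c1, was the one member at least 1.5-fold lower, with 1304 and 805 reads (-0.59, from -0.72 to -0.46). This call sits at the threshold and was lost under every other scaling, at -0.57 with TMM normalization and -0.58 with upper-quartile scaling, and with the GC correction. *Cycs*, the mobile electron carrier cytochrome c, had 853 and 1081 reads (0.45, from 0.32 to 0.58).

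Complex IV, cytochrome c oxidase, had 13 of 14 genes with a ratio above 1 and 5 that were at least 1.5-fold higher. Of all genes 7.5% were at least 1.5-fold higher, and of those of similar length 12.8%. *Cox6a1* led with 1622 and 2612 reads (0.79 on the log2 scale, interval from 0.70 to 0.88), followed among the abundant genes by *Cox7a2* with 302 and 452 (0.69), *Cox5b* with 1633 and 2300 (0.60) and *Cox5a* with 1026 and 1433 (0.59). *Cox4i1*, the largest nuclear-encoded subunit, had 1616 and 1687 reads (0.17, from 0.07 to 0.27), the lowest ratio among the ubiquitous subunits. *Cox7c*, with the highest level per length of the complex in the WT library, had 1782 and 2099 reads (0.34), and *Cox6b1* and *Cox8a* had log2 fold changes of 0.39 and 0.56. *Ndufa4*, first assigned to complex I but part of complex IV, had 118 and 152 reads (0.47, from 0.11 to 0.83).

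The paralogues of complex IV subunits that mark other tissues or conditions were scarce in both libraries. *Cox4i2*, a lung and hypoxia isoform, had 3 and 3 reads, and *Cox6b2*, the testis isoform, 8 and 8. *Ndufa4l2*, a hypoxia-induced paralogue, had 1 and 0 reads, both under the 3 reads (0.451 and 0.485 CPM) taken as the smallest level shown. *Cox6a2*, *Cox8b* and *Cox8c* had no row in either table. *Cox7a1*, the heart and muscle isoform, was the exception, with 25 and 42 reads (log2 fold change 0.84) and a wide interval from 0.11 to 1.63. *Cox7a2l*, a factor of supercomplex assembly, had 70 and 60 reads (-0.12, from -0.64 to 0.40).

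The ATP synthase had 14 of 15 genes with a ratio above 1, and 13 intervals above 0. In the F1 head, where ATP is made, the catalytic subunit gene *Atp5b* had the most reads of all members, 9776 and 11502 (log2 fold change 0.34, interval from 0.30 to 0.38). *Atp5a1* had 6767 and 7499 reads (0.25), *Atp5d* 2096 and 2613 (0.42), *Atp5e* 1240 and 1477 (0.36) and *Atp5c1* 264 and 282 (0.20, from -0.05 to 0.45). Of these 5 genes of the head, 4 lay between 0.25 and 0.42. The c ring, the proton-driven rotor, is encoded by 3 genes that give the same mature protein, and all were higher in the KO library. *Atp5g1* had 119 and 195 reads (0.81, from 0.48 to 1.16), *Atp5g2* had 1667 and 2151 (0.47), and *Atp5g3* had 2096 and 2791 (0.52). The 4 genes of the peripheral stalk ranged from 0.14 to 0.41. *Atp5l*, which encodes subunit g of the membrane part, was lower in the KO library with 593 and 462 reads (-0.26, from -0.43 to -0.08). *Atp5s* (23 and 19 reads, -0.16) and *Atp5sl* (481 and 438 reads, -0.03), which are not subunits, had intervals that included 0.

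With reads divided by the length of a representative GENCODE transcript and the library total (RPKM), the members spanned a wide range of levels. In the WT library they ran from 1.58 for *Ndufs1* to 767 for *Atp5b*, with a median of 91.3, and in the KO library from 1.58 to 971 for the same genes, with a median of 133. The highest levels in the WT library were 406 RPKM for *Ndufa1* in complex I, 139 for *Sdhb* in complex II, 358 for *Uqcrh* in complex III, 496 for *Cox7c* in complex IV and 767 for *Atp5b* in the ATP synthase. Medians by complex in the WT library were 87.2 for complex I, 92.1 for complex II, 123 for complex III, 233 for complex IV and 239 for the ATP synthase. The low level of *Ndufs1* in the WT library stands against 14.7 RPKM for *Ndufs8*, 23.7 for *Ndufv2*, 59.2 for *Ndufv1*, 67.5 for *Ndufs7* and 70.2 for *Ndufs3*. All of them encode core subunits of complex I. None of the 50-base windows of *Ndufs1* recurs elsewhere in the genome, while 53.7% of those of *Ndufs3* do. What gave rise to the low level was not tested.

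**Figure D2:**
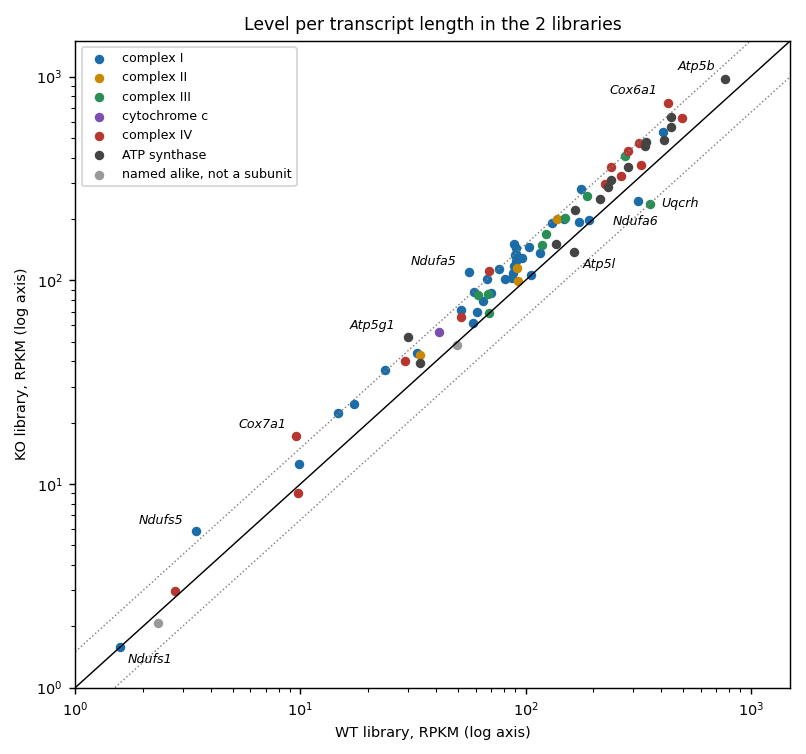
Level of the 81 members in RPKM in the WT library (x axis, log scale) and the KO library (y axis, log scale), 1 point per gene, 1 library per genotype, coloured by complex. The solid line marks equal levels and the dotted lines a 1.5-fold difference; most points lie just above the solid line, from *Ndufs1* at 1.58 RPKM to *Atp5b* at 767 RPKM in the WT library.

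Sequence shared with other loci bears on these counts, since respiratory chain genes have many processed pseudogenes and the treatment of multiply matching reads is not given in the sources used here. Over 50% of the 50-base windows of the transcript recurred elsewhere in the genome for 16 of the 83 members, and under 10% for 46. Among the genes named above, this share was 97.4% for *Atp5g2*, 93.7% for *Cox7c*, 90.1% for *Atp5l* and 86.8% for *Atp5g1*. It was 83.4% for *Ndufs5*, 76.0% for *Cox5b*, 63.8% for *Sdhc*, 59.2% for *Cox7a2l* and 53.7% for *Ndufs3*. Of genes named below, it was 54.9% for *Ndufab1* and 51.1% for *Atp5f1*. The values of all these genes are uncertain in that respect. The share was 0% for *Ndufa5*, 5.91% for *Ndufa6*, 11.4% for *Uqcrh* and 18.6% for *Cox6a1*. Across the 81 members, Spearman's rho between this share and the log2 fold change was -0.07, given as a description over genes that share their libraries.

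Transcript length moved with the comparison across the whole tables, and the members are short. Of 81 members, 54 fell in the tenth of all genes with the shortest transcripts, where all genes had a median log2 fold change of 0.22 and the members 0.43. In the tenth with the longest transcripts the median of all genes was -0.43. Spearman's rho between length and log2 fold change was -0.35 over 10796 genes and -0.27 over the 81 members, as a description across genes of the same libraries. Among the 3208 genes between 445 and 1896 bases long, the central 80% of member lengths, 67.7% had a ratio above 1, 12.8% were at least 1.5-fold higher, and the median was 0.20. The members, at 91.4%, 16.05% and 0.40, stood above these shares by less than above those of all genes. Of the same 3208 genes, 1150 had an interval above 0 and 186 were at least 1.5-fold lower. Among the 2144 of them with at least 100 reads these numbers were 1032 and 91. Of the 2144, 1595 had a ratio above 1 and 292 were at least 1.5-fold higher. For the 81 members, the numbers with an interval above 0 and at least 1.5-fold lower were 64 and 1. They were 51 and 1 for the 65 members in that length range. The 76 members with at least 100 reads, of any length, had 63 and 1. Of these 76, 71 had a ratio above 1 and 12 were at least 1.5-fold higher.

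After each log2 fold change was centred on a curve against length, the members' median was 0.20, against 0.01 over all genes. Of the 81 members 65 stayed above 0, and of all 10796 genes with a length 5490 lay above 0. In place of 13 members, 4 were then at least 1.5-fold higher with an interval above 0: *Ndufa5* at 0.86, *Atp5g1* at 0.61, *Ndufab1* at 0.60 and *Cox6a1* at 0.59. The share of all genes so called after centring is not given here, so this count cannot be read as an excess. *Ndufab1* encodes the mitochondrial acyl carrier protein, which also sits in complex I, and had 401 and 530 reads. Over 50% of the windows of *Ndufab1* and of *Atp5g1* recurred elsewhere in the genome, so their values are uncertain in that respect. *Cox4i1* and *Atp5f1*, whose intervals had lain above 0, then stood at -0.05 and -0.02. The genes on the lower side moved further down, to -0.79 for *Uqcrh*, -0.58 for *Ndufa6* and -0.45 for *Atp5l*. Medians by complex were then 0.24 for complex I, 0.22 for complex II, 0.27 for complex III, 0.22 for complex IV and 0.19 for the ATP synthase. What gave rise to the relation with length was not tested.

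**Figure D3:**
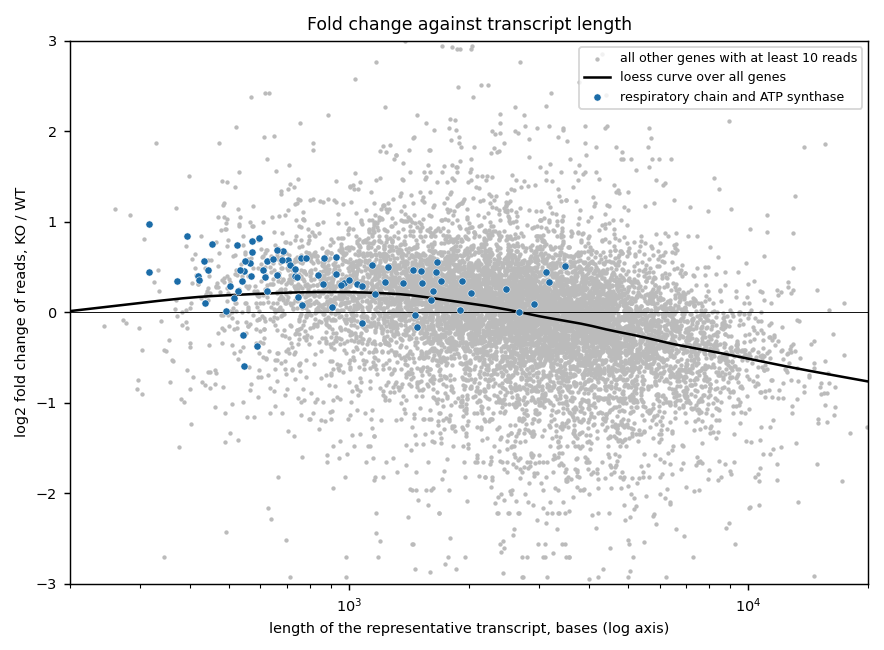
Log2 fold change of reads, KO over WT (y axis), against the length of the representative transcript in bases (x axis, log scale), for the members (blue) and all other genes with at least 10 reads (grey), 1 library per genotype. The black curve is the loess curve over all genes, and most members lie among short transcripts and above it; 112 other genes lie outside the axes.

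Other nuclear genes with short transcripts and ties to translation or mitochondria are those of the ribosomes. The 76 genes of the mitochondrial ribosome, which translates the subunits encoded in mitochondrial DNA, had a median log2 fold change of 0.34, with 69 ratios above 1 (48.6% of all genes and 67.7% of those of similar length), 16 genes at least 1.5-fold higher (7.5% and 12.8%) and 0 lower (12.5% of all genes). After centring on the length curve their median was 0.20, as was that of the members. The cytosolic ribosomal protein genes, of which 77 of 82 had at least 10 reads, had a median of -0.04, with 26 ratios above 1, and of -0.24 after centring. The difference between these groups was not tested, since there was 1 library per genotype.

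**Figure D4:**
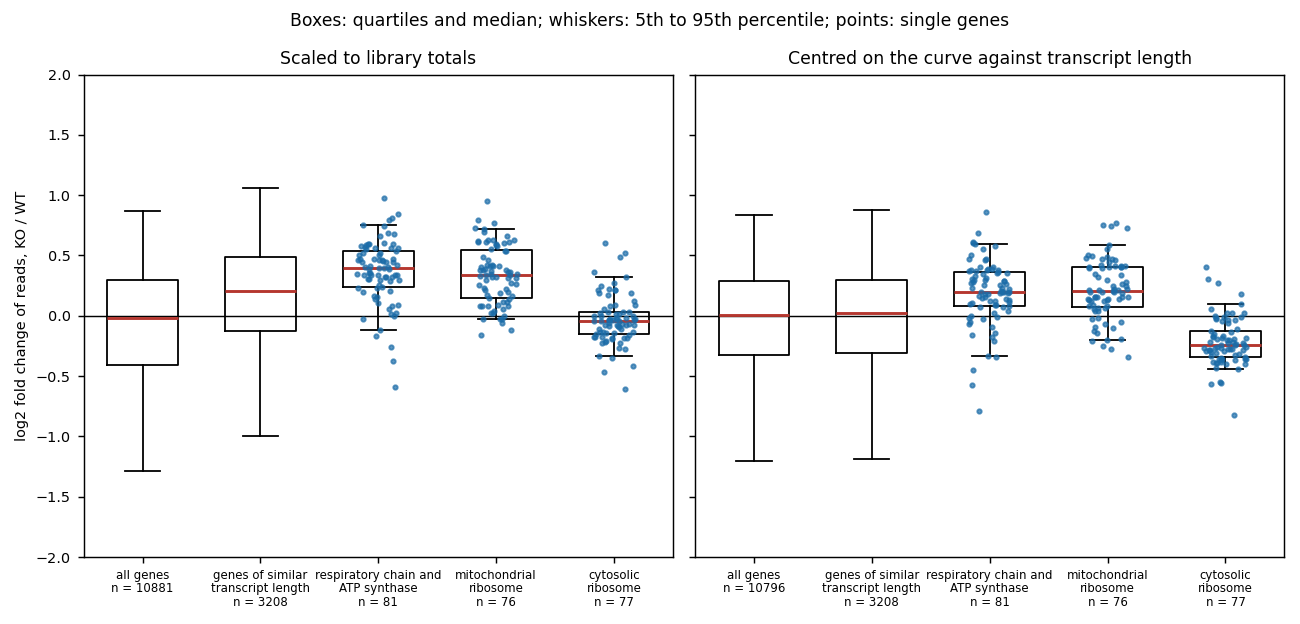
Log2 fold change of reads, KO over WT (y axis), for all genes, genes of similar length, the members and the ribosomal protein genes (x axis), scaled to library totals (left) and centred on the length curve (right), 1 library per genotype. Boxes show quartiles and median, whiskers the 5th to 95th percentile and points single genes; the members' median is 0.40 on the left and 0.20 on the right, and that of the cytosolic ribosome is -0.04 and -0.24.

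Other genes of the pathway were read from fixed lists. Of 49 assembly factors of the respiratory chain, 40 had at least 10 reads, with a median log2 fold change of 0.20, and of 0.10 centred on the length curve. Of these, 2 were at least 1.5-fold higher and 1 lower, against 7.5% and 12.5% of all genes. *Ndufaf5*, which acts on the complex I subunit *Ndufs7*, was higher in the KO library with 55 and 80 reads (0.64), and *Pet100*, a complex IV factor, with 55 and 89 (0.79). *Lyrm7*, a chaperone of the Rieske protein *Uqcrfs1*, was lower with 32 and 14 reads (-1.06, interval from -2.11 to -0.14). Centred on the length curve, *Ndufaf5* stood at 0.43 and *Pet100* at 0.58, both under 1.5-fold, and *Lyrm7* at -0.97.

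Of the 11 genes for synthesis of ubiquinone, the lipid that links complexes I and II to complex III, 4 were at least 1.5-fold higher in the KO library and 0 lower, against 7.5% and 12.5% of all genes. The median was 0.35, and 0.24 centred on the length curve. *Pdss1*, which makes the isoprenoid tail, had 39 and 85 reads (1.22, interval from 0.67 to 1.81). *Coq3* had 89 and 148 reads (0.84), *Coq7* had 75 and 120 (0.78) and *Coq6* had 82 and 129 (0.76), all enzymes that modify the ring. Centred on the length curve, *Pdss1* stood at 1.05, *Coq3* at 0.83, *Coq6* at 0.60 and *Coq7* at 0.56, the last under 1.5-fold. Of the 14 genes for tricarboxylic acid cycle enzymes 11 had ratios above 1, against 48.6% of all genes. The median was 0.26 (0.19 centred on the length curve) and none reached 1.5-fold before centring. Among 8 listed carriers and channels, including the adenine nucleotide and phosphate carriers, only *Vdac3*, an outer membrane pore, passed 1.5-fold with 17 and 40 reads (1.32, from 0.49 to 2.25).

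Of 16 transcription factors and coactivators of mitochondrial genes, which act on nuclear or on mitochondrial DNA, 13 were listed. Their median log2 fold change was -0.05, below that of the members. Centred on the length curve their median was 0.20, as was that of the members, and 8 of 13 lay above 0. *Pprc1*, a coactivator of the PGC-1 family induced by growth signals, was lower in the KO library with 1471 and 816 reads (-0.75, interval from -0.87 to -0.62). *Gabpb1*, the partner of the ETS factor *Gabpa*, was lower on few reads, 24 and 8 (-1.42, from -2.84 to -0.28), and *Gabpa* itself had 621 and 486 (-0.25, from -0.42 to -0.08). *Nrf1*, whose product binds the NRF1 core, was measured with only 12 and 10 reads. *Tfam*, which packages mitochondrial DNA, had 488 and 525 reads (0.21, from 0.03 to 0.39). Centred on the length curve, *Pprc1* was at -0.49 and *Gabpa* at -0.01.

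A promoter window was found in the RefSeq table for 69 of the 81 members. It was found for 8726 of the 10831 genes with at least 10 reads whose name matched a RefSeq gene. These genes had 75 and 10772 windows, and a motif counted when any window of a gene held it. The NRF1 core was found in 15.9% of members and 6.33% of all genes, and the YY1 core in 15.9% and 5.73%. The shares were 23.2% and 21.5% for the ETS core, 44.9% and 42.6% for the CCAAT box, and 42.0% and 69.3% for the GC box. The differences from all genes were not particular to the members. Of 67 genes of the mitochondrial ribosome with a window, 11.9% had the NRF1 core, 17.9% the YY1 core and 49.3% the GC box. In these genes the ETS core was found in 35.8% and the CCAAT box in 40.3%. Medians of members with and without a motif lay close together. The median log2 fold change was 0.45 for the 11 members with the NRF1 core and 0.40 for the 58 without it, and 0.39 for the 16 with the ETS core and 0.41 for the 53 without it. For the CCAAT box it was 0.36 and 0.43, and for the GC box 0.38 and 0.42. Of the 11 members with the NRF1 core, *Cox6a1* was among those at least 1.5-fold higher, and *Ndufa6* and *Atp5l* among those with an interval below 0.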

How the data were processed

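RNA-seq of Th17 cells was done on 1 WT and 1 *Trim28* KO library. The 6 ChIP-seq samples were not analysed here. The authors deposited raw counts of reads per gene, without normalization, in 1 table per library that lists genes with reads, and a gene missing from one table was given 0 reads there. Per the study's methods, reads were mapped to mm10 with SOAP2. The submitters' processing notes name bcl2fastq, HTSeq, Bowtie and SICER 1.1 without roles. Annotation, strand and the treatment of multiply matching reads are not given in the sources used here.

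Counts were scaled to library totals (6.65 and 6.19 in units of 1000000 reads), 0.5 was added to each, and the 10881 genes that reached 10 reads in sum were kept. "Higher" or "lower by at least 1.5-fold" means that fold with an exact 95% interval leaving out 0, computed with SciPy 1.17.1 in Python 3.11.15. Intervals treat reads as independent molecules, although there were no molecular identifiers. With 1 library per genotype, edgeR has no residual degrees of freedom for a test, and no p-value is given. Names matched RefSeq of GRCm38.p6 by symbol (12838) or older symbol (803), and 63 did not match. Length is that of the middle-length coding GENCODE transcript with a RefSeq counterpart, found for 99.2% of tested genes, and the length curve was a loess fit (statsmodels 0.14.6, span 0.3). RPKM values were computed from the deposited counts with this length. The share of a transcript found elsewhere was counted over its 50-base windows in GRCm38. The calculations were tested on simulated data.

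The rule for the members uses symbols alone and no measured value. This rule, the gene lists and the rule for the genes named were chosen with earlier results of these data known. Named were, in each complex, the genes with the highest and lowest ratio (at least 50 reads) and the highest level per length, members past 1.5-fold, isoforms, core subunits, members under 10 reads, and genes of other lists past 1.5-fold. Genes with intervals below 0, *Ndufs5*, *Ndufab1* and *Atp5f1* were named after their values were seen, as were the genes shown as sequence and those named from other lists below 1.5-fold. Alternatives were TMM (edgeR 4.0.16), DESeq2 1.42.0 size factors and upper-quartile scaling in R 4.3.3, 5 added to each count, other filters on reads, corrections for length and GC content, and structural subunits only. The values of 1 member and 1 gene of another list are not reported here.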

Additional observations from a re-analysis of the deposited data

How the results depend on the processing

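With 1 library per genotype no library could be left out, and no value has a replicate check. No paired analysis was possible because there was 1 library per genotype. Under every alternative run, the members' median stayed above 0. The log2 ratio of their summed share was run only with the other scalings, with structural subunits only and without members with shared windows. It stayed above 0 in these, and was not run with the length correction. No scaling moved all genes by more than 0.02 (log2), so the scalings could not have brought this ratio to 0. The median of 0.40 moved to 0.20 with the correction for transcript length, and to 0.12 when that correction used the longest coding transcript, an alternative chosen after seeing the data. The number of members at least 1.5-fold higher, 13, was 4 and 3 under these corrections, without a share of all genes to set beside them. The number at least 1.5-fold lower, 1 (*Uqcrh*), was 0 with TMM normalization, DESeq2 size factors, upper-quartile scaling and the GC correction, and 2 with the correction by the longest transcript, which also gave 1 member at least 2-fold higher in place of 0. The log2 ratio of the summed share, 0.35, was 0.37 with TMM normalization and with DESeq2 size factors. Leaving out members with over 50% of their windows elsewhere in the genome, also chosen after seeing the data, left the median at 0.40 and the summed ratio at 0.35. Of 486 values for the 81 single genes, 18 lost and 9 gained the 1.5-fold call, 10 of the losses with the length correction, and 45 others moved beyond their counting interval. The sign changed in 16, 9 of them with the length correction, and 2 of these genes (*Atp5f1* and *Cox4i1*) had an interval above 0. Apart from the construction of each alternative, the cause was not tested. Depth limits the genes with few reads, such as *Ndufs5*, *Cox7a1* and *Ndufs1*.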
